A study of Strongylocentrotus intermedius with 6 samples.

Results

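Clotting-type genes were followed in the coelomocytes of Strongylocentrotus intermedius, a sea urchin whose body cavity holds these free immune cells. The 85 genes were those of 30559 gene models (22969 of them coding) whose authors' description, transferred from similar proteins of other species, names an olfactomedin or noelin, a von Willebrand domain, a coagulation factor, a transglutaminase, thrombin, plasminogen, a serpin or a Kunitz inhibitor. A further 4 matches, all described as venom prothrombin activators, were left out by the rule. All animals were kept under LD, by convention a daily cycle of light and dark, and RNA was sequenced at ZT0 (3 libraries) and ZT12 (3 libraries), where ZT counts hours from lights-on by convention. The series concerns day length and the clock protein Cryptochrome1 in sea urchin immunity. The comparison here asks which of these transcripts differed between the times. No strain, age or sex is given in the labels, and they do not say whether a library is 1 animal or a pool, so p-values measure the spread between these samples, which may be technical.

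Wounded sea urchins do not form the fibrin clot of vertebrates. Their coelomocytes aggregate, and in Strongylocentrotus the secreted olfactomedin-domain protein amassin links the cells through disulfide bonds. In vertebrates a cascade of serine proteases, the coagulation factors, ends with thrombin, which cuts fibrinogen. Transglutaminases then crosslink the clot, plasmin made from plasminogen dissolves it, and serpins and Kunitz inhibitors hold the proteases in check. In horseshoe crabs a hemocyte transglutaminase serves clotting as well.

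The descriptions matched only some of these names. No gene was described as amassin, as an olfactomedin or as von Willebrand factor itself, and no member description held the word serpin. A further 10 coding genes, described with the words myocilin, gliomedin or latrophilin for olfactomedin-like proteins, lay outside the rule. The 85 comprised 44 von Willebrand domain genes, 36 of them annotated Svep1, 15 coagulation factor or thrombin genes, 15 genes named for plasminogen, 7 noelin genes, 3 transglutaminase genes and 1 Kunitz gene. The authors' GO terms placed blood coagulation on 26 of the 85, against 48 coding genes in all, and fibrinolysis on 14. All 36 Svep1-type genes instead carried lymph vessel development and the Tie signaling pathway, roles known from mammals. In 9 runs, 22 members had consecutive identifiers. The files give no positions, and near-identical copies could share reads, so values of single copies in these families are uncertain.

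Library totals ran from 20229918 to 24368884 counts. Pairs of libraries had Spearman correlations over genes (no independent replicates) of 0.896 to 0.922 inside a time and 0.893 to 0.911 across times. Genes described as echinoidin, a lectin of coelomic fluid, summed to 3278 to 10060 CPM, TMM-scaled counts relative to library size, per library, and 3 complement C3 genes, made by coelomocytes in sea urchins, to 764 to 1853 CPM. Markers of skeleton-forming cells summed to 416 to 843 CPM at ZT0 and 94.9 to 185.0 CPM at ZT12. Of their 11 tested genes 6 were lower at ZT12 by edgeR at the threshold used here, beside 0.114% of all genes. Summed digestive enzyme genes lay at 3711 to 4880 CPM at ZT0 and 3677 to 3962 CPM at ZT12. Of their 27 genes tested by edgeR 0 were called, with 20 above 0 (beside 50.1% of all genes) and a median log2 fold change of 1.56. At an unadjusted p under 0.05, 9 were higher and 1 lower, beside 3.44% and 3.87% of all genes. DESeq2 called 5 of the 35 it tested, all higher at ZT12, beside 1.27% of all genes in either direction. The 5 muscle marker genes summed to 641 to 843 CPM. Neuron markers summed to 855 to 1344 CPM and pigment cell markers to 2985 to 3410 CPM. Germ cell markers summed to 133.9 to 191.7 CPM and ciliated cell markers to 110.5 to 213 CPM. The muscle, neuron, pigment, germ and ciliated cell lists held 0 genes called by edgeR. DESeq2 called 1 of 30 neuron genes and 1 of 90 pigment cell genes, beside 1.27% of all genes, and 0 in the muscle, germ and ciliated lists. At an unadjusted edgeR p under 0.05, 2 of 27 neuron genes were higher and 1 lower. Of 70 pigment cell genes 3 were higher and 6 lower, and in the muscle, germ and ciliated lists 0 were found. The part of these cell types in the values below was not tested.

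Clotting-type genes took 1.43 to 1.84% of all counts of a library, and a handful supplied most of this. The Svep1-type gene ZJQ009371 alone held 38.3 to 54.4% of the members' counts, and the top 5 held 70.2 to 80.1%. Levels between genes are given per length, as the deposited FPKM (fragments scaled to gene length and library total). By mean FPKM 8 of the 85 genes exceeded 100, 36 lay from 1 to 100 and 41 lay under 1. SVEP1 is in mammals a large secreted matrix protein with a von Willebrand A domain and many sushi repeats. ZJQ009371 had 789 ± 115 FPKM (SD, n = 6) and ranked 92 of all gene models per length and 5 by CPM. Next stood the noelin genes OLFM1 ZJQ005710, with 519 ± 348 FPKM, and Olfm2 ZJQ005709, with 350 ± 165 FPKM (SD, n = 6). Noelins are secreted olfactomedin-domain glycoproteins, known best from vertebrate nerve tissue. Then came the Svep1-type genes ZJQ005942 (190 ± 45.9 FPKM), ZJQ005944 (185.3 ± 54.7) and ZJQ024059 (152 ± 67.9). WFIKKN2 ZJQ021972, the 1 Kunitz gene, had 147 ± 19 FPKM, and Serbp1 ZJQ005571, named for the plasminogen activator inhibitor mRNA that its RNA-binding protein binds, had 120.5 ± 17 FPKM. From ZJQ005710 down to ZJQ021972, each gene differed from the next by less than its own SD.

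**Figure D1:**
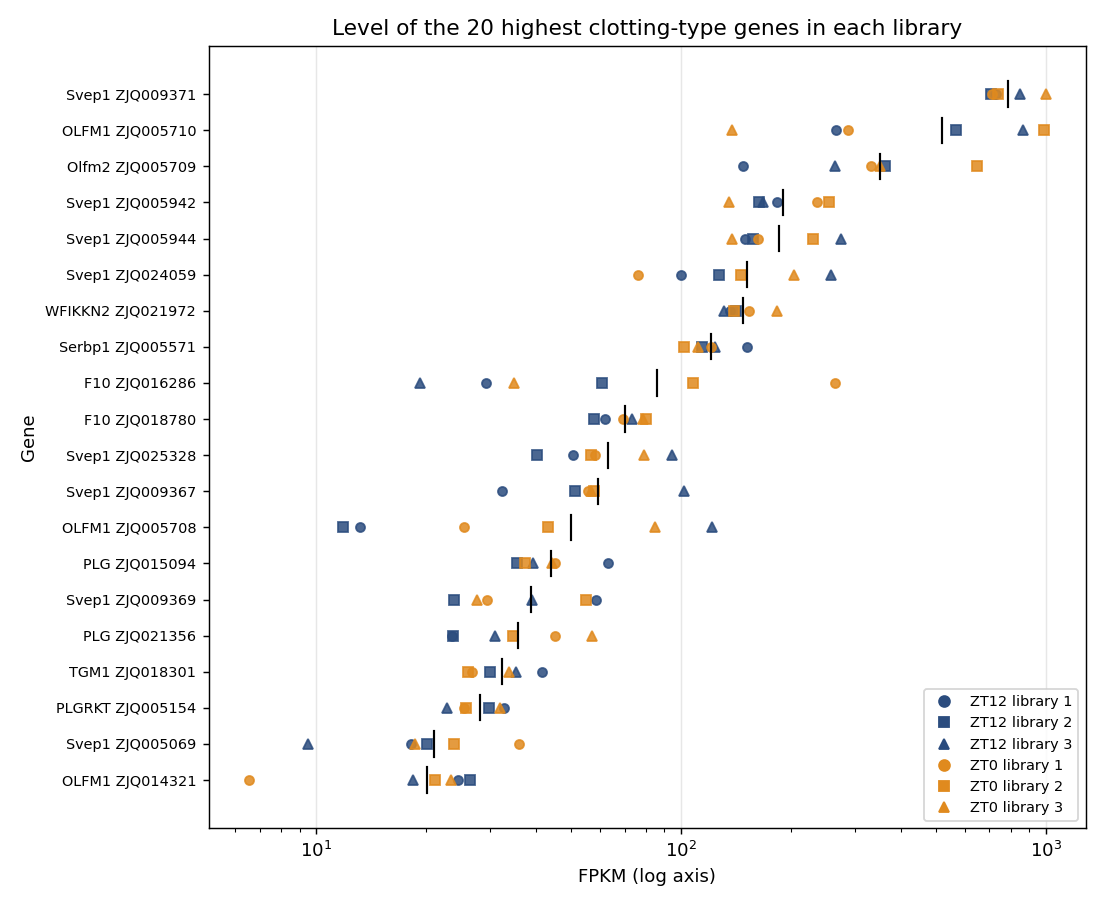
Level of the 20 clotting-type genes with the highest mean, in FPKM on a log axis. Points are libraries, coloured by time and shaped by library number, and black ticks are means over 6 libraries. ZJQ009371 lies to the right at 789 FPKM on average, and F10 ZJQ016286 and OLFM1 ZJQ005708 have the widest scatter.

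Between the times, no clotting-type gene passed the test. Of the 85 genes 53 had enough counts to be tested, and 0 were called by edgeR (quasi-likelihood F test, Benjamini-Hochberg over 18456 genes) at a false discovery rate of 0.05. Over all genes 0.13% (24) were called, 0.0163% higher and 0.114% lower at ZT12. An unadjusted p under 0.05 was seen in 8 of the 53 (15.1%, beside 7.31% of all genes), with 4 higher and 4 lower at ZT12, beside 3.44% and 3.87% of all genes. The lowest adjusted p was 0.407. Libraries of the 2 times did not overlap in 10 of the 53 (18.9%, beside 12.2% of all genes), with ZT12 above in 4 and below in 6, beside 5.84% and 6.33% of all genes. The median log2 fold change (ZT12 minus ZT0) was 0.02, beside 0.00 over all genes tested, with 28 members above and 25 below 0 (52.8% above, beside 50.1% of all genes). In 44 of the 53 the absolute log2 fold change was under 1. In bulk RNA, fewer cells of a type and less RNA per cell cannot be told apart. Genes were tested where at least 3 of the 6 libraries, of either time, reached the count filter, so the 53 are not all members, and the other 32 are described further on.

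**Figure D2:**
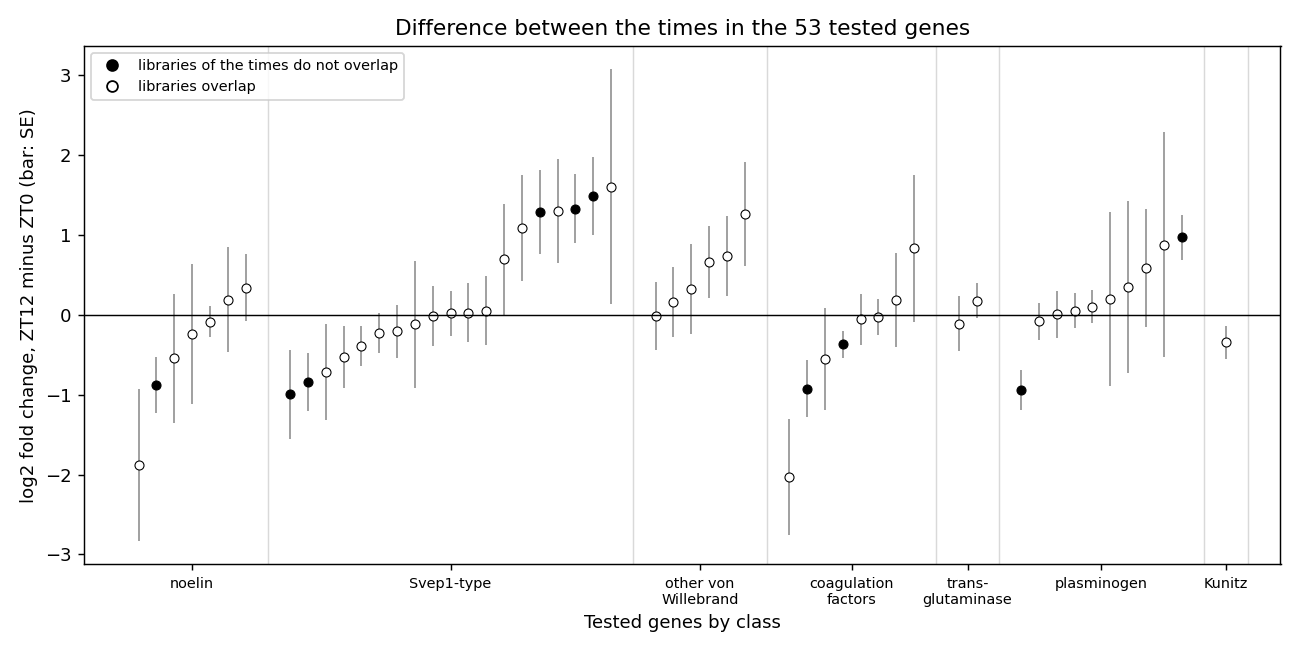
log2 fold change (ZT12 minus ZT0, edgeR) with its standard error for the 53 tested genes, grouped by class and sorted within it. Filled points mark the 10 genes whose libraries do not overlap between the times, and none of the 53 passed the test.

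No noelin gene passed the test. Of the 7, all tested, 5 lay below and 2 above 0, beside 50.1% of all genes above. Within a time 4 ranged by at least 2 log2 units, as did 18 of the 53 tested members and 24.5% of all genes. OLFM1 ZJQ005710 and Olfm2 ZJQ005709 together held 69.1 to 87.2% of the family's counts. They belong to a run of 4 noelin genes with consecutive identifiers, ZJQ005707 to ZJQ005710.

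Olfm2 ZJQ005709 had 210, 496 and 348 CPM in ZT12 libraries 1, 2 and 3, and 514, 882 and 544 CPM in ZT0 libraries 1, 2 and 3. Every ZT12 library thus lay below every ZT0 library, if narrowly. The log2 fold change was -0.88 (SE 0.35, edgeR adjusted p = 0.641). Its neighbour OLFM1 ZJQ005710 had 380.5, 785 and 1157 CPM at ZT12 and 451, 1366 and 216 CPM at ZT0. Here the times overlapped fully, with both the highest and the lowest library at ZT0, and the log2 fold change of 0.19 (SE 0.66, adjusted p = 0.969) changed sign when single libraries were left out. Per length ZJQ005710 was 3.28 times ZJQ005709 in ZT12 library 3 and 0.39 times in ZT0 library 3, so the 2 most abundant noelins were not in a fixed ratio.

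OLFM1 ZJQ005708, of the same run, had 19, 16.4 and 162 CPM at ZT12 and 39.9, 59.5 and 133 CPM at ZT0, high in library 3 of each time. Olfm3 ZJQ005707 had 7.77, 17.4 and 0.594 CPM at ZT12 against 8.84, 18.2 and 10.2 CPM at ZT0, and ZT12 library 3 stood far below the rest. The library lowest in Olfm3 was thus the one highest in ZJQ005708. Olfm3 is among the 5 tested members with the widest range, and ZJQ005708 was chosen after its values were seen.

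Outside the run, OLFM1 ZJQ013619 had 18.9, 12.4 and 21.1 CPM at ZT12 and 8.89, 164 and 19.3 CPM at ZT0. Only ZT0 library 2 was high, 7.79 times the next library. The log2 fold change of -1.88 (SE 0.95, adjusted p = 0.726) rested on it and was 0.31 without that library. OLFM1 ZJQ014320, by contrast, stayed within 42.3 to 54.7 CPM in all 6 libraries (log2 fold change -0.08, SE 0.19, adjusted p = 0.949), and OLFM1 ZJQ014321 had 82 to 122 CPM at ZT12 and 34.2 to 122 CPM at ZT0. These last 2 genes are named to account for all 7 noelin genes.

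**Figure D3:**
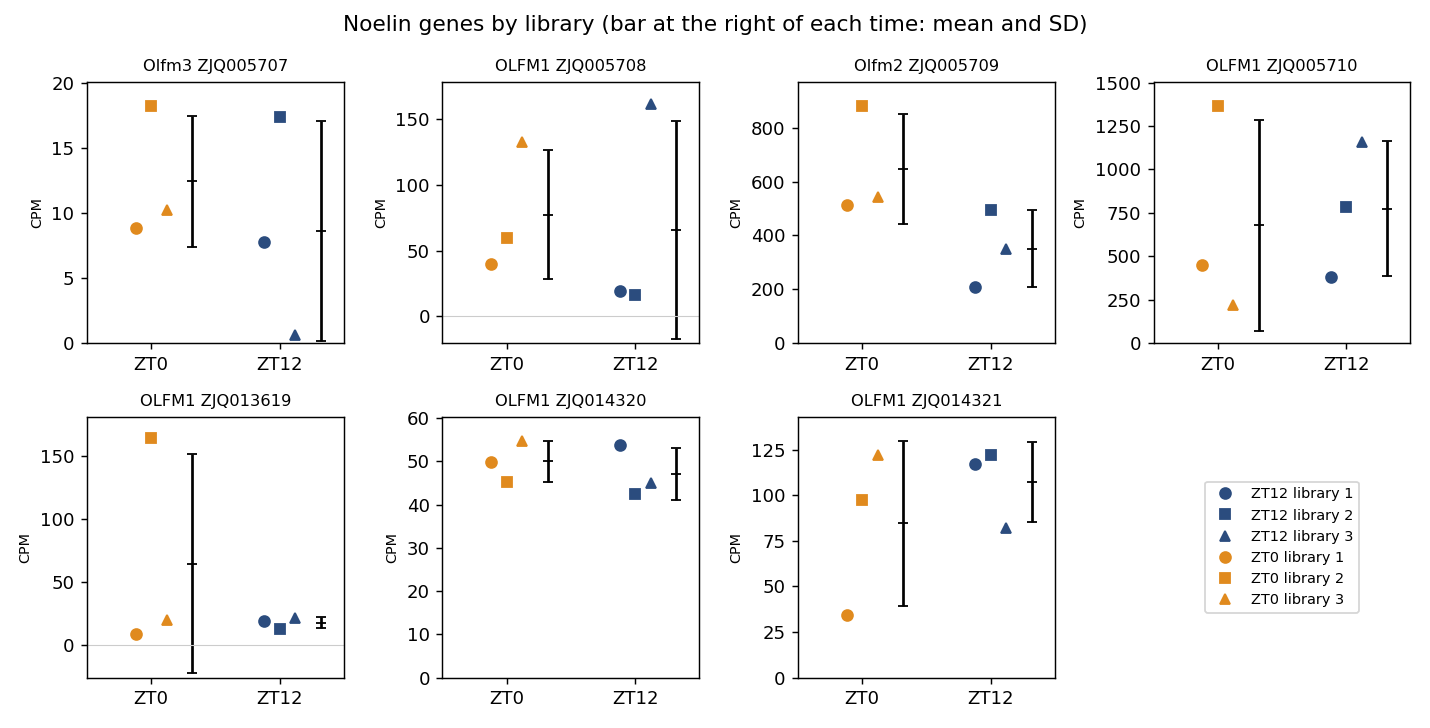
CPM of the 7 noelin genes in each library, with mean and SD (n = 3) beside each time. Olfm2 ZJQ005709 is the 1 gene whose times do not overlap, and ZJQ013619 is high in ZT0 library 2 alone (164 CPM).

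The 36 Svep1-type genes spanned from no counts to the members' highest level. Of these, 19 were tested by edgeR and none of the 19 passed. By mean FPKM 4 exceeded 100 and 23 lay under 1, with a median of 0.275 FPKM. The model lengths implied by counts and FPKM ran from 396 to 11798 bases over the 35 genes with counts. Across these 35 genes, which are not independent, the Spearman correlation of length and mean FPKM was 0.22, as a description. The short models ZJQ009367 and ZJQ025328, of 720 and 696 bases, held 59.2 and 63.1 FPKM, while ZJQ006793, of 728 bases, held 0.085 FPKM. Among long models ZJQ006790, of 9426 bases, held 0.22 FPKM, while ZJQ009371, of 9330 bases, held 789 FPKM. All but ZJQ009371 were chosen here after their values were seen.

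**Figure D4:**
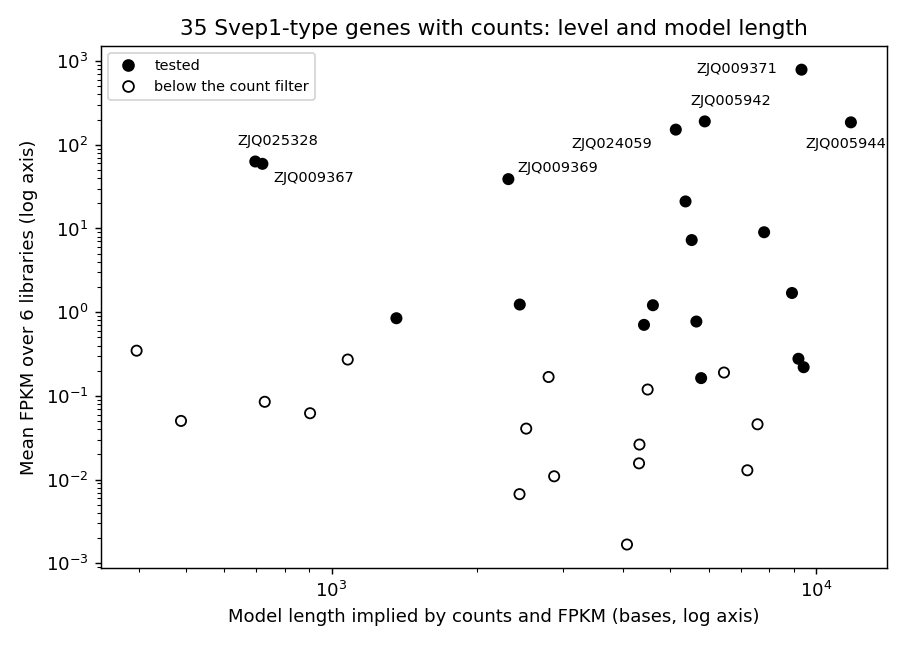
Mean FPKM over 6 libraries against model length for the 35 Svep1-type genes with counts, both on log axes. Filled points are the 19 genes tested, and the labelled genes are the 7 highest, from 38.9 to 789 FPKM.

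Of the 19 tested Svep1-type genes, 3 were higher at ZT12 at an unadjusted p under 0.05 and 0 lower, beside 3.44% and 3.87% of all genes, while 10 lay above and 9 below 0. The most abundant, ZJQ009371, had 6806, 6350 and 7339 CPM at ZT12 and 7246, 6604 and 10140 CPM at ZT0. ZT0 library 3 stood above the rest and the other libraries were close together (log2 fold change -0.23, SE 0.25, edgeR adjusted p = 0.898). ZJQ005942 had 918 to 1077 CPM at ZT12 and 870 to 1518 CPM at ZT0 (-0.39, SE 0.25, adjusted p = 0.787), and ZJQ005944 had 1765 to 3012 and 1767 to 2610 CPM (0.02, SE 0.28, adjusted p = 0.993). ZJQ024059 had 511, 627 and 1228 CPM at ZT12 and 426, 719 and 1142 CPM at ZT0, a pattern with library 3 of each time highest (0.05, SE 0.43, adjusted p = 0.99). The abundant Svep1-type genes thus overlapped between the times in every case.

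The 3 genes with a small unadjusted p were scarcer. ZJQ010747 had 86.8, 38.2 and 46.8 CPM at ZT12 and 35.6, 13.5 and 19.5 CPM at ZT0. The times did not overlap, though ZT12 library 2 and ZT0 library 1 were close (log2 fold change 1.33, SE 0.44, edgeR adjusted p = 0.542). ZJQ011674 had 3.85, 6.7 and 3.02 CPM at ZT12 against 1.41, 1.79 and 1.59 CPM at ZT0 (1.48, SE 0.49, adjusted p = 0.544). ZJQ005871 had 2.01, 1.09 and 1.74 CPM against 0.555, 0.726 and 0.696 CPM (1.29, SE 0.52, adjusted p = 0.649). In the last 2 genes the ZT0 libraries were close together and all ZT12 libraries lay above them. Below ZT0 stood ZJQ005069, with 97.2, 104 and 47.3 CPM at ZT12 and 212, 123 and 109 CPM at ZT0 (-0.84, SE 0.36, adjusted p = 0.687), and ZJQ009002 (-0.99, SE 0.56, adjusted p = 0.746). They complete the 5 of 19 Svep1-type genes without overlap, 3 above and 2 below, beside 5.84% and 6.33% of all genes, and are outside the naming rule.

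Several scarce Svep1-type genes were carried by 1 or 2 libraries. ZJQ005910, the tested member with the widest range, had 0.246, 10.6 and 0.457 CPM at ZT12 and 0, 3.2 and 0.199 CPM at ZT0, so that library 2 of each time held nearly all of it. Its log2 fold change of 1.60 (SE 1.47, adjusted p = 0.867) was -1.79 without ZT12 library 2. The other von Willebrand domain genes were all scarce, from 0.129 to 1.54 mean FPKM. They comprised 3 genes for VWA8, a mitochondrial ATPase, 3 for VWA3A or VWA3B, 1 for VWA5B1 and 1 for VWDE. Of these 8, 6 were tested and 0 had an unadjusted p under 0.05, beside 7.31% of all genes. With 5 above 0, beside 50.1% of all genes, their median log2 fold change was 0.49. VWDE ZJQ018666 (chosen after its values were seen) had 1.8, 1.61 and 4.75 CPM at ZT12 and 0.555, 1.62 and 1.14 CPM at ZT0 (1.26, SE 0.65, adjusted p = 0.729).

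The coagulation factor class held 4 genes each annotated F9 and F7, 3 annotated F10, 1 each F8 and F2, and 2 for MCFD2, an adapter that carries factors V and VIII out of the endoplasmic reticulum in mammals. Of these 15 genes 8 were tested and 0 were called. At an unadjusted p under 0.05, 0 were higher and 2 lower, beside 3.44% and 3.87% of all genes. Of the 8, 6 lay below 0, and over all genes 50.1% lay above 0. Factor X is the vertebrate protease that activates prothrombin. F10 ZJQ016286 had 89.9, 180 and 55.2 CPM at ZT12 and 890.5, 320 and 118 CPM at ZT0. ZT0 library 1 was by far the highest, 16.1 times the lowest library, and ZT12 library 2 lay above ZT0 library 3. The log2 fold change was -2.03 (SE 0.72, edgeR adjusted p = 0.591), the most negative among the tested members, and -1.01 without ZT0 library 1. The other tested F10 gene, ZJQ018780, was steady, with 219, 197 and 242 CPM at ZT12 and 269, 274 and 305 CPM at ZT0. All ZT12 libraries lay below all ZT0 libraries by a small amount (-0.37, SE 0.17, adjusted p = 0.703).

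Factor VII starts the tissue-factor arm of vertebrate clotting. F7 ZJQ009886 had 7.32, 4.37 and 9.05 CPM at ZT12 and 11.8, 16.6 and 10.9 CPM at ZT0, without overlap (log2 fold change -0.92, SE 0.36, edgeR adjusted p = 0.634). F2 ZJQ003119, annotated prothrombin, was even across libraries, with a mean of 36 ± 5.23 CPM for ZT12 and 36.6 ± 7.03 CPM for ZT0 (SD, n = 3; -0.02, SE 0.23, adjusted p = 0.991). Mcfd2 ZJQ000413 had 6.71 to 18.7 CPM in 5 libraries and 44.2 CPM in ZT0 library 2, the library that was also high in OLFM1 ZJQ013619. F2 and Mcfd2 were chosen after their values were seen. None of the 4 F9 genes was tested, and ZJQ014047 (also chosen so) had 44 counts in ZT12 library 3 and 0 in the other 5.

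Among the genes named for plasminogen, whose product plasmin dissolves fibrin in vertebrates, 2 PLG genes stood on opposite sides of 0, without passing the test. PLG ZJQ021356 had 91.9, 89.1 and 112 CPM at ZT12 and 192, 130 and 242 CPM at ZT0. All ZT12 libraries were lower (log2 fold change -0.94, SE 0.25, edgeR adjusted p = 0.407), the smallest of any clotting-type gene. PLG ZJQ021352 had 40.3, 64.8 and 35.1 CPM at ZT12 and 21.9, 22 and 27.6 CPM at ZT0. All ZT12 libraries were higher (0.97, SE 0.28, adjusted p = 0.468). Per length ZJQ021356 stood 1.14 to 2.66 times above ZJQ021352 at ZT12 and 4.92 to 7.31 times above it at ZT0, a ratio formed after both values were seen and not tested.

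**Figure D5:**
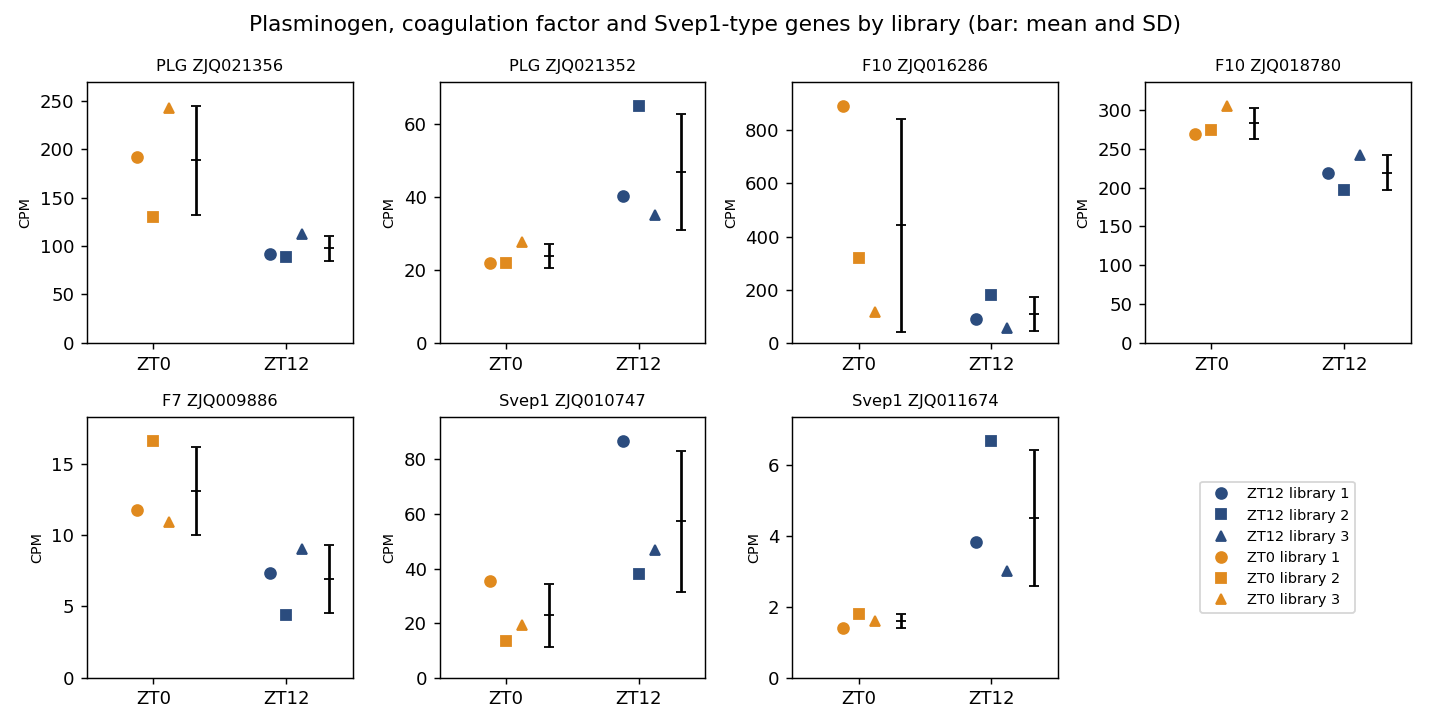
CPM of 7 plasminogen, coagulation factor and Svep1-type genes in each library, with mean and SD (n = 3). The times overlap in F10 ZJQ016286, where ZT0 library 1 stands at 890.5 CPM, and do not overlap in the other 6 genes shown.

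Of 13 genes described as plasminogen 8 were tested, and 2 had 0 counts in all libraries. Of the 8, 7 lay above and 1 below 0, beside 50.1% of all genes above. A run of 4 with consecutive identifiers, ZJQ023182 to ZJQ023185, was uneven. Plg ZJQ023182 had 0, 5.84 and 0.96 CPM at ZT12 and 0, 3.25 and 0.0994 CPM at ZT0, and Plg ZJQ023184 had 4.54, 11.5 and 0.366 CPM against 2.07, 11.1 and 0.646 CPM. Both were highest in library 2 of each time, as was the Svep1-type gene ZJQ005910 (adjusted p = 0.925 for ZJQ023182 and 0.981 for ZJQ023184). The steadier genes were PLG ZJQ024090, at 19.7 to 25.4 CPM, and PLGRKT ZJQ005154, a cell-surface plasminogen receptor, at 61.7 to 101 CPM (both chosen after their values were seen). Serbp1 ZJQ005571 had means of 800 ± 142 CPM (ZT12) and 746 ± 111 CPM (ZT0) (SD, n = 3; 0.10, SE 0.21, adjusted p = 0.94).

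The crosslinking enzymes and the Kunitz gene had no call between the times. TGM1 ZJQ018301, a transglutaminase gene, had 176, 122 and 139 CPM at ZT12 and 124, 106 and 156 CPM at ZT0, with overlapping ranges (log2 fold change 0.18, SE 0.22, edgeR adjusted p = 0.908). The other TGM1 gene, ZJQ010565 (outside the naming rule), had 75.7 to 112 CPM at ZT12 and 50.6 to 127 CPM at ZT0 (-0.11, SE 0.35, adjusted p = 0.964). A gene described as the hemocyte transglutaminase, ZJQ010063, was below the count filter, with 21 counts in ZT12 library 2, 13 in ZT0 library 2 and 0 or 1 in the other 4. WFIKKN2 ZJQ021972, a secreted protein with Kunitz and other inhibitor domains, had 843, 845 and 754 CPM at ZT12 and 1036, 830 and 1238 CPM at ZT0 (-0.35, SE 0.20, adjusted p = 0.758).

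The 32 genes below the count filter never exceeded 125 counts in a library, and 17 of them were Svep1-type. In 3 no count was found, where 3 counts would be worth 0.123 to 0.148 CPM, a limit for counting error only. Of the 29 with counts, 13 were highest in ZT12 library 3 and 0 in ZT0 library 1, beside 19.1% and 13.9% of all genes below the filter. Counts were found for 76 of the 85 genes in ZT12 library 3 and for 60 in ZT0 libraries 1 and 3, beside 24666, 23487 and 23790 genes of any kind in these libraries. Svep1-type ZJQ008579 had 45, 14 and 6 counts in ZT12 libraries 1, 2 and 3 and 0 in every ZT0 library. Scaled to library size, its pooled ZT12 counts stood 20.4-fold above a floor of 3 counts over the ZT0 group. That figure rests mostly on ZT12 library 1 and leaves out the spread between ZT12 libraries. DESeq2, which tests genes below the count filter too, called ZJQ008579 (DESeq2 adjusted p = 0.0308). It was the only member called of the 62 that DESeq2 tested, beside 1.27% of all genes. By edgeR without the filter ZJQ008579 was not called (adjusted p = 0.686). ZJQ006191, another Svep1-type gene, had 39 counts in ZT12 library 3, 4 in library 1 and 0 in the other 4. These 2 genes were chosen after their values were seen.

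Genes around the clotting list did not pass the edgeR test either. Over 8 lists of related genes 69 were tested and 0 were called by edgeR. Under an unadjusted p of 0.05 came 13% (9 genes, 6 of them higher and 3 lower at ZT12), beside 7.31% of all genes. By direction, 3.44% of all genes were higher and 3.87% lower. DESeq2 called 4 genes of these lists, and each is given below with its DESeq2 adjusted p. They were 1 of 10 thrombospondin-type genes, 1 of 7 other protease inhibitors, 1 of 13 serine proteases and 1 of 10 annexins that DESeq2 tested. It called 0 of 16 integrins, 10 disulfide isomerase and oxidase genes, 7 fibrinogen-domain and ficolin genes and 2 vitamin K genes. Over all genes it called 1.27%. Among 9 tested thrombospondin-type genes, which code for matrix and platelet-type adhesive proteins, 1 was higher and 1 lower at an unadjusted p under 0.05. THSD7A ZJQ002856, a thrombospondin-domain membrane protein, had 222, 152 and 225 CPM at ZT12 and 585, 466 and 464 CPM at ZT0 (a log2 difference of -1.34, SE 0.22, edgeR adjusted p = 0.119, DESeq2 adjusted p = 0.000164). Thbs2 ZJQ003024 had means of 0.753 ± 0.294 CPM (ZT12) and 0.164 ± 0.156 CPM (ZT0) (SD, n = 3; 2.07, SE 0.76, adjusted p = 0.566). THBS1 ZJQ001378, the most abundant of them, had 247 ± 52.6 and 263 ± 80.2 CPM (adjusted p = 0.963).

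Other protease inhibitors, 7 tested, included Wfdc6a ZJQ002847, a scarce WAP-domain gene with 5.61, 2.61 and 10.9 CPM at ZT12 and 0.202, 0 and 0.596 CPM at ZT0 (a log2 difference of 4.62, SE 0.91, edgeR adjusted p = 0.151, DESeq2 adjusted p = 0.000786). For reck ZJQ006289, a membrane inhibitor of metalloproteinases, it was 0.84 (SE 0.38, adjusted p = 0.703). The cystatin gene cpiB ZJQ023026 was even, at 440 ± 29.2 and 464 ± 27.9 CPM (SD, n = 3; adjusted p = 0.941). Of 10 tested membrane and kallikrein-type serine proteases 3 were higher and 1 lower at an unadjusted p under 0.05. Over all genes these shares were 3.44% and 3.87%. TMPRSS9 ZJQ021089 had 6.87, 12.3 and 27.1 CPM at ZT12 and 1.87, 4.83 and 2.24 CPM at ZT0 (2.34, SE 0.61, edgeR adjusted p = 0.385, DESeq2 adjusted p = 0.0135). Tmprss9 ZJQ008116 overlapped between the times (3.55, SE 1.30, adjusted p = 0.614), and TMPRSS2 ZJQ021279 was the most abundant (0.23, SE 0.53, adjusted p = 0.95).

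Annexins bind membrane phospholipids with calcium. Of 10 tested, 1 was higher and 1 lower at an unadjusted p under 0.05, beside 3.44% and 3.87% of all genes. ANXA13 ZJQ011452 had 13.5, 0.713 and 3.47 CPM at ZT12 and 0.298 to 0.385 CPM at ZT0 (a log2 difference of 4.09, SE 1.13, edgeR adjusted p = 0.4, DESeq2 adjusted p = 0.00418), with ZT12 library 1 far above the rest. ANXA7 ZJQ014889 was at -0.61 (SE 0.26, adjusted p = 0.682) and the abundant ANXA4 ZJQ011451 at -0.05 (SE 0.31, adjusted p = 0.983). The 16 tested integrins, cell adhesion receptors, had 0 genes at an unadjusted p under 0.05, beside 7.31% of all genes. Their most abundant gene, ITGA8 ZJQ017552, had 1258 ± 144 and 1681 ± 526 CPM (SD, n = 3; -0.42, SE 0.26, adjusted p = 0.782), and itgb1-b ZJQ006240 was at 0.49 (SE 0.21, adjusted p = 0.684) and ITGA8 ZJQ006000 at 0.29 (SE 0.17, adjusted p = 0.754).

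The 9 tested disulfide isomerase and oxidase genes, whose enzymes form and shuffle disulfide bonds in secreted proteins, also had 0 at an unadjusted p under 0.05. Over all genes this share was 7.31%, so few would be looked for in lists this short. Here pdi-2 ZJQ020340 had 1540 ± 298 and 1622 ± 417 CPM (SD, n = 3), a log2 difference of -0.07 (SE 0.26, edgeR adjusted p = 0.97), CRELD1 ZJQ012730 was at 0.51 (SE 0.52) and tmx3 ZJQ016982 at -0.28 (SE 0.34). The 6 tested fibrinogen-domain and ficolin genes likewise had 0. FCN2 ZJQ014108 was at -0.84 (SE 0.38, adjusted p = 0.703), Tnr ZJQ005081 at 0.78 (SE 0.41, adjusted p = 0.734) and fibcd1-a ZJQ006153, the most abundant, at -0.15 (SE 0.28, adjusted p = 0.931). The 2 tested vitamin K genes, for the enzymes that carboxylate vertebrate clotting factors and recycle the vitamin, were GGCX ZJQ005954 at -0.17 (SE 0.29) and vkorc1l1 ZJQ024601 at 0.00 (SE 0.37). Serpins were present under another name: 12 genes with the symbols SERPINB1 or Serpinb1a are described as leukocyte elastase inhibitors and so lie outside the rule. Of these 6 were tested and 0 had an unadjusted p under 0.05, beside 7.31% of all genes, with log2 fold changes from -0.22 to 0.45. The highest levels were in Serpinb1a ZJQ014234 (19.8 ± 5.55 FPKM) and SERPINB1 ZJQ006984 (15 ± 5.54 FPKM; SD, n = 6), chosen after the names were seen.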

How the data were processed

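RNA was sequenced from coelomocytes in 6 libraries, 3 at ZT0 and 3 at ZT12. The submitters' processing notes name fastp, HISAT2 and HTSeq. Versions, build, annotation and strand were not given in the sources used here, so reads of overlapping genes cannot be told apart. Whole-number gene counts, not normalized, and FPKM values for each library were deposited by the authors. Of 109307 FPKM values with at least 10 counts, 100% equalled the count divided by the library total and 1 length per gene, within 0.1%, and that length is the model length given.

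Genes were kept by filterByExpr (minimum count 10, total 15), scaled by TMM and tested with edgeR 4.0.16 in R 4.3.3 (glmQLFit with legacy = FALSE, glmQLFTest), as ZT12 minus ZT0, with p-values adjusted by Benjamini-Hochberg over 18456 genes. The SE of a log2 fold change is its size over the root of F. CPM use TMM-scaled library sizes, and log2 CPM ranges a prior count of 2. DESeq2 1.42.0 and limma 3.58.1 were alternatives, limma-trend on log2(FPKM + 1) and log2(FPKM + 0.1). Of these steps only the edgeR fit was run on simulated counts, and its recovery of known changes is not given here. Permuting 3 against 3 libraries cannot reach 0.05, so the edgeR model was used throughout.

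Members and lists were chosen with earlier results of these data known. Genes were named if called, at an unadjusted p under 0.05, among the 10 highest by mean FPKM, highest or of smallest p in their class, or among the 5 widest in range, with Svep1 ZJQ009371. Of each related list the 2 smallest p and the highest level were named. After names were seen, 20 genes of unrelated kind, such as cathepsins matched by hepsin, were removed from related lists, which held 0 calls before and after. No genome was used here, so no positions or sequences are given.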

Additional observations from a re-analysis of the deposited data

How the results depend on the processing

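The count of clotting-type genes called was 0 in the edgeR fit and under 14 of 15 alternatives, and 1 by DESeq2. Over all genes edgeR called 24, DESeq2 259, edgeR with legacy dispersions 10 and limma-voom 0 (1078 at an unadjusted p under 0.05, 7 of them clotting-type genes). With a library left out edgeR called 0 to 21 genes in all, namely 0 without ZT12 library 1 and 0 without ZT12 library 3, 16 to 21 otherwise, and 0 clotting-type genes each time, with 5 to 12 at an unadjusted p under 0.05. The members' median log2 fold change, 0.02, ran from -0.035 to 0.182 with a library left out, the highest without ZT0 library 2. Same-numbered libraries did not deviate together (r of -0.05, 0.02 and -0.00 across genes for numbers 1, 2 and 3), and 0 libraries matched their own number best. With a replicate block edgeR called 13 genes, 0 of them clotting-type. Of 22 named and tested members 13 kept their direction under all 15 alternatives. The sign turned in 9 of them, none called under any alternative, and the cause was not tested. ZJQ005944 was at -0.0095 by limma-voom and -0.012 with the replicate block. With single libraries left out the log2 fold changes ran from -0.28 to 0.18 for ZJQ005944, -0.0379 to 0.20 for ZJQ005571, -1.55 to 0.0053 for ZJQ005707, -0.23 to 1.21 for ZJQ005710, -1.79 to 5.13 for ZJQ005910, -2.39 to 0.31 for ZJQ013619, -1.37 to 5.31 for ZJQ023182, -0.91 to 2.0003 for ZJQ023184 and -0.42 to 0.46 for ZJQ024059. Fits with 2 libraries at a time pool the spread over genes and assume that it holds for the smaller group. Low counts limit the 32 genes below the filter.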
